A study of Homo sapiens with 18 samples.

Results

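Genes without introns give messenger RNA that does not pass through the spliceosome. Many of them arose when a processed messenger RNA was copied back into the genome, and others belong to old families such as the heat shock proteins, the SOX and FOX factors, the beta cluster of the protocadherins and the Frizzled receptors. Transcripts of these genes still need capping, cleavage and polyadenylation, and they reach the cytoplasm by routes that do not rely on proteins left at exon junctions. DNAJC17, a J-domain protein with an RNA recognition motif (RRM), has been tied to the spliceosome, so genes that do and do not need splicing were compared after its loss.

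The genes described here are 270 protein-coding genes out of 57500 genes in the count tables and 19583 protein-coding ones. They were chosen by their listed exons, which all merge to 1 block, and by a mean raw count of at least 50 over the 12 parental libraries, with histone genes left out. The mean count is therefore given below only as a description. Of 1187 single-block coding genes other than histone genes, 917 fell short of that minimum, and 11 histone genes above it were set aside. Just inside it were *TMEM86B* (mean 50.8 counts) and *HPDL* (51.7), and just outside were *CCDC96* (49.2) and *C15orf62* (48.1). The genes set beside them are 12256 spliced protein-coding genes, which merge to more than 1 block, with the same minimum.

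RNA came from ES8, a line of Ewing sarcoma, and from Rh30, a line of alveolar rhabdomyosarcoma, both carrying dCas9-KRAB, a repressor that an sgRNA leads to a gene (CRISPRi). In each line 3 libraries came from parental cells with a control sgRNA (sgCTL), 3 from parental cells with an sgRNA against *DNAJC17* (sgDNAJC17), and 3 from cells that also expressed a FLAG-tagged DNAJC17 cDNA without the RRM (dRRM) and received sgDNAJC17. All were harvested after 72 hours in puromycin, and libraries were made from polyadenylated RNA. The replicates were wells of 1 line plated in triplicate, so p-values measure the spread between such wells, and no dRRM library with sgCTL was analysed, so what the allele does and what the sgRNA does cannot be told apart in those cells.

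Library totals ran from 35342393 to 48245989 counts. *DNAJC17* itself fell from 559 to 625 counts with sgCTL to 59 to 77 with sgDNAJC17 in ES8, and from 461 to 522 down to 81 to 113 in Rh30, while dRRM libraries held 9849 to 14449 counts from transgene and endogenous gene together. The Ewing sarcoma markers *NR0B1*, *NKX2-2*, *STEAP1* and *PRKCB* were high in ES8 and below 0.1 CPM in Rh30, and the muscle genes *MYOD1*, *MYOG* and *DES* were high in Rh30 and at group means of at most 1.19 CPM in ES8. The other 3 of these 10 markers did not separate the lines so: with sgCTL, *CCND1* was at 975 CPM in ES8 and 239 in Rh30, *FGFR4* at 103 and 467 and *PAX3* at 28 and 16.1. Replicates differed beyond counting noise, and ES8 sgDNAJC17 replicate A stood apart, with a chi-square per degree of freedom of 27.5 and 31.5 against replicates B and C and of 2.63 between those. For ES8 dRRM replicate B the values were 31.8 and 20.5 against A and C, and 9.08 between those. For Rh30 sgDNAJC17 replicate A they were 16.0 and 28.7 against B and C, and 7.16 between those. The Rh30 sgDNAJC17 and dRRM libraries stood apart from Rh30 sgCTL in epithelial genes: the summed level of 17 such markers was 239 to 258 CPM (counts scaled to library size by TMM) with sgCTL, 260 to 284 with sgDNAJC17 and 307 to 339 with dRRM, 2 of the 17 had no count in any sgCTL library, and of 11 tested 6 were called up and 1 down by sgDNAJC17 and 8 up and 0 down in dRRM cells. The Rh30 sum rests mainly on *CLDN4*, *PERP* and *KRT7*, and genes nearly absent with sgCTL rose by larger factors. With sgCTL, sgDNAJC17 and dRRM in Rh30, *KRT8* was at 0.77, 8.61 and 8.48 CPM, *KRT18* at 0.23, 2.88 and 2.78 and *CDH1* at 0.03, 0.74 and 0.58. Only *CLDN4* had a lower mean with sgDNAJC17, at 72.8 against 88 CPM. In ES8 the sum was 342 to 350 with sgCTL and 316 to 393 with sgDNAJC17. In Rh30 these epithelial levels moved with sgDNAJC17, and their part in the Rh30 results that follow was not tested.

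The label "intronless" held for most but not all of the members. In the reference annotation, the main (canonical) transcript of 195 nuclear members has 1 exon, and these are called single-exon members below. In 30 of these 195 some listed exons lie apart, which implies an intron in another transcript. Another 13 members are encoded by mitochondrial DNA. The remaining 62 have a canonical transcript with introns, of 4 exons in the median and up to 17. In 50 of these 62 some listed exons lie apart, and they merge because another annotated transcript runs through the introns. In the other 12 no listed exons lie apart. These 62 are called filled-in members. They include the ribosomal protein genes *RPL13*, *RPL18*, *RPL23*, *RPS15* and *FAU*, and *UQCRQ*, which encodes a subunit of respiratory complex III. They are spliced genes by this annotation and are reported apart.

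The members lay on 24 chromosomes, the mitochondrial one included, with most on chromosome 19 (22 genes), chromosome 17 (19), chromosome 1 (18) and chromosome 5 (18). Of the 195 single-exon members, 106 overlapped no other gene, 47 shared exonic bases with a gene that did not enclose them, 29 lay inside a gene of the other strand and 13 inside a gene of the same strand. In all, 114 of the 270 members shared exonic bases with another gene, and since strand use in the counting is not stated, their counts may include or lack reads of that neighbour and are uncertain. Among the members named here this holds for *ZNHIT2*, *TIGD1*, *KTI12*, *FEM1A*, *TSPYL1*, *CHMP1B*, *MCTS2*, *DNAJC30*, *SOX11*, *JUNB*, *MGAT2*, *UQCRQ*, *PET100*, *TXNDC17*, *NME3*, *AJM1*, *FOXC2* and the protocadherins *PCDHB2*, *PCDHB5*, *PCDHB10*, *PCDHB11* and *PCDHB15*. It also holds for *PCBP1*, *TMEM229A*, *TMEM86B*, *FAU*, *RPL13*, *RPL18* and *RPL23*, and by few bases for *MT-ATP6*, *MT-CO3* and *MT-ND4L*. Single-exon members were shorter and richer in GC than spliced genes. Their median merged exonic length was 2797 bases (quartiles 2110 and 4184) against 5258 in spliced genes, and their median GC content was 53.7% against 47.9%.

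Per kilobase of exon, the most abundant members in the parental libraries were 5 mitochondrial genes: *MT-CO1* (1799 CPM per kb), *MT-CO2* (1728), *MT-CO3* (1700), *MT-ND4L* (1163) and *MT-ATP6* (1145). The leading nuclear single-exon members were *SF3B5*, a small subunit of the SF3B complex of the U2 snRNP, at 445 CPM per kb, the poly(C)-binding protein gene *PCBP1* at 269 and *JUN* at 153. These 3 were picked after their levels had been seen. All these levels are means over both lines, and *JUN* had 1025 to 1283 counts in the parental ES8 libraries and 43985 to 55147 in those of Rh30. Single-exon members took 0.847% ± 0.00533 (SD, n = 3) of all counts in ES8 sgCTL libraries and 1.01% ± 0.0363 (SD, n = 3) with sgDNAJC17. The same share was 0.724% ± 0.0204 (SD, n = 3) and 0.757% ± 0.0289 (SD, n = 3) in Rh30, where the ranges of the groups overlapped.

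Upstream sequence is shown for the member families whose members have near-identical or shared control regions, taken from RefSeq (GRCh38.p14) within 250 bases before each start site. The heat shock genes *HSPA1A* and *HSPA1B* are near-identical neighbours: 94.4% of 249 aligned bases upstream of their starts were the same. Both hold the core of a heat shock element, GAANNTTC, printed in capitals; on either strand it was found upstream of 5.78% of 35116 genes and of 5.73% of the 157 single-exon members matched by symbol. The windows, all plus strand, are chr6:31815427-31815454 and chr6:31827623-31827650:
HSPA1A: gaaaaccctgGAATATTCccgacctggc
HSPA1B: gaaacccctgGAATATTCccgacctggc

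The protocadherin beta genes lie side by side on chromosome 5, and each has a promoter of its own. The string GTGGCGCTG was picked because it recurs in these promoters; it was found, on either strand, in 10 of the 12 matched members (83.3%), against 0.47% of all 35116 genes. It holds CGCT, the core of the conserved element known from this family. It is shown in capitals for a member called up in both lines (*PCDHB2*), a member called in ES8 and nearly silent in Rh30 (*PCDHB5*) and a member called in Rh30 but not in ES8 (*PCDHB12*), at chr5:141094546-141094574, chr5:141135181-141135205 and chr5:141208645-141208673, plus strand:
PCDHB2: gagacgcgggGTGGCGCTGcagccttaga
PCDHB5: aggacgcctgGTGGCGCTGcaggct
PCDHB12: gagacgcgtgGTGGCGCTGcaggataata

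In ES8, sgDNAJC17 raised many intronless genes and lowered few. Of 263 members tested, 128 (48.7%) were called up at an adjusted p under 0.05 (edgeR quasi-likelihood test, Benjamini-Hochberg over all genes) and 5 down, where 13.6% of all 17143 genes tested were called up and 13.8% down. Among spliced genes of the same minimum level 14.6% were up and 18% down. The changes were small: the median log2 fold change of the members was 0.28 (quartiles 0.04 and 0.47), against -0.03 for spliced genes, and at 2-fold or more 2 members were up and 0 down, with backgrounds of 1.66% and 0.286%. Among single-exon members 94 of 189 were up (49.7%) and 4 down, with a median of 0.29. Of 61 filled-in members 23 were up and 1 down, with a median of 0.14. Without sgCTL replicate C 85 members were up, and without sgDNAJC17 replicate A 26 were down; the share of members up was then 32.2% and 55.3%, against 7.61% and 22.4% of all genes. The count called down was also over 1.5 times lower without sgCTL replicate A (3), B (2) or C (1).

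In Rh30 the shift had the same sign and was smaller. Of 239 members tested, 75 (31.4%) were called up and 15 (6.28%) down, with 16.1% and 16.2% of all 15391 genes called in those directions and 18.7% and 20.2% of spliced genes. The median log2 fold change was 0.13 (quartiles -0.05 and 0.25) against -0.01 for spliced genes. Among single-exon members 48 of 165 (29.1%) were up and 11 down, and among filled-in members 23 of 61 were up and 4 down. At 2-fold or more 0 members were up and 1 was down, with backgrounds of 0.767% and 0.786%. Here libraries of 1 letter deviated together, and with the replicate block 95 members were up and 24 down, when 23.5% of all genes were called in either direction, and 38.2% of single-exon members and 44.9% of spliced genes of 3 to 5 exons were up. With library totals alone in place of TMM 47 were up (19.7%, against 11.1% of all genes) and 18 down. Leaving out 1 library changed the counts by over 1.5 times: 47 were up without sgCTL replicate A, 45 without sgCTL replicate C and 41 without sgDNAJC17 replicate B, when 9.70%, 11.6% and 9.45% of all genes were up. The count called down was 8, 9, 27, 6 and 8 without sgCTL A or B or sgDNAJC17 A, B or C.

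The difference from spliced genes was present in each class of mean count. In ES8 the share of members called up was 17.4% at a mean of 50 to under 200 counts, 46.7% at 200 to under 1000, 54.3% at 1000 to under 5000 and 81.8% at 5000 or more, against 6.92%, 9.97%, 16.2% and 25.9% of spliced genes. In Rh30 the shares were 11.9%, 21.5%, 38.8% and 60.6%, against 7.37%, 14.4%, 20.3% and 29.9%. The highest class held 33 members, of which 13 were mitochondrial, and among its 9 single-exon members 6 were up in ES8 and 4 in Rh30.

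Spliced genes differed widely among themselves by exon number, and against these classes the lines parted. In ES8, spliced genes of 2 exons were up in 18.6% and down in 7%, those of 3 to 5 exons in 25% and 7.26%, and those with 21 or more in 2.38% and 49.2%, so that the 49.7% of single-exon members was above every class of spliced genes. In Rh30, genes of 3 to 5 exons were up in 32.4%, with a median log2 fold change of 0.13, and the 29.1% and 0.13 of single-exon members were no higher. Spliced genes inside the quartiles of GC content and length of the single-exon members were up in 25.1% and down in 11.3% in ES8 (1457 tested) and in 20.6% and 16.2% in Rh30 (1388 tested). Exon number, length and GC content vary together over genes, and their separate parts were not tested.

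**Figure D1:**
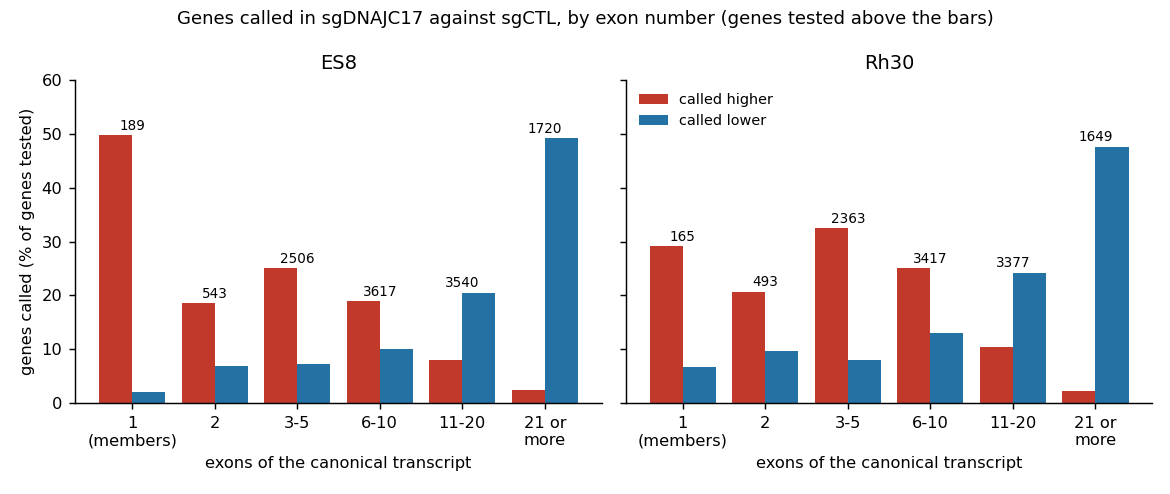
Share of genes called higher (red) or lower (blue) in sgDNAJC17 against sgCTL, in % of the genes tested, by the number of exons of the canonical transcript; the first pair of bars shows the single-exon members and the rest spliced genes, with the number tested above. In ES8 the single-exon members are up in 49.7%, above every other class, while in Rh30 they are up in 29.1% and genes of 3 to 5 exons in 32.4%.

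The shift was seen in each library rather than in a few. Against the mean of the sgCTL libraries, the median log2 difference of the single-exon members was 0.35, 0.22 and 0.25 in ES8 sgDNAJC17 replicates A, B and C, and 0.14, 0.12 and 0.07 in Rh30. In the sgCTL libraries, each set against the other 2, it ran from -0.02 to 0.02 for ES8 and from -0.04 to 0.04 for Rh30. The median of spliced genes ran from -0.03 to 0.01 in these libraries. Groups therefore did not overlap in either line, and the gap was narrow in Rh30.

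**Figure D2:**
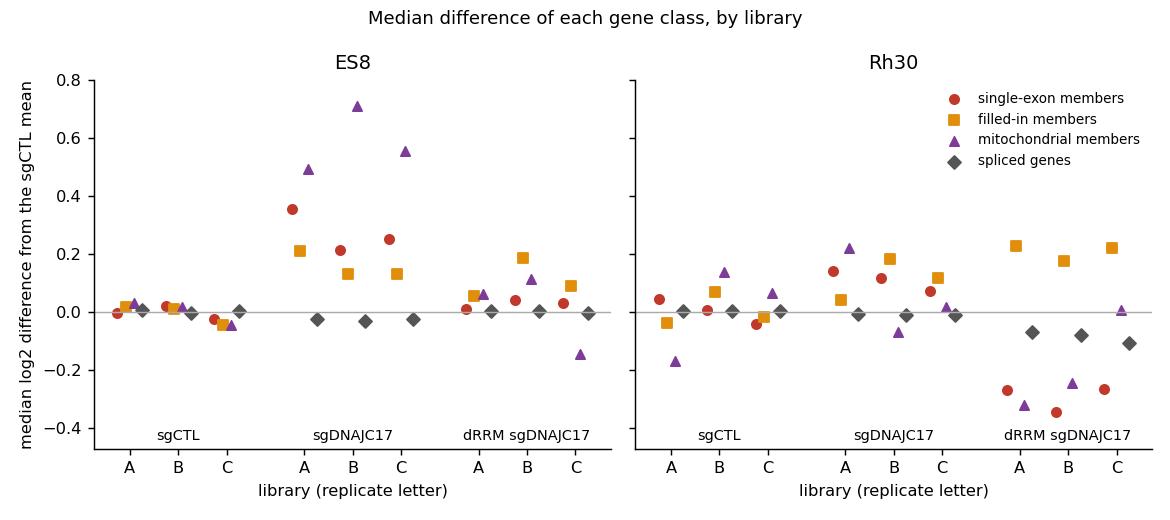
Median log2 difference of each gene class from the mean of the line's sgCTL libraries (y axis), for every library (x axis, replicate letters); a sgCTL library is set against the other 2. Single-exon members (red circles) lie at 0.22 to 0.35 in the ES8 sgDNAJC17 libraries and at 0.07 to 0.14 in those of Rh30, and at -0.34 to -0.26 in Rh30 dRRM cells.

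In ES8, single-exon members that overlapped no gene were up in 48.5% (50 of 103 tested), those inside a gene of the other strand in 61.5% (16 of 26), those sharing exonic bases in 51.1% (24 of 47) and those inside a gene of the same strand in 30.8% (4 of 13). In Rh30 those inside a gene of the same strand were up in 7 of 10, and those without overlap in 21.8% (19 of 87), with 9 down. For a gene inside another of the same strand, reads of the host's unspliced RNA can fall on the member, and their part was not tested.

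In both lines together 55 members were up and 0 down, of 232 tested in both, with 6.17% of 13841 genes up in both and 6.18% down in both. They make up 45.5% of the 121 members up in ES8 and 74.3% of the 74 up in Rh30 among those tested in both, where over all genes these shares were 40.8% and 36.7%, so the first is near the background. Of the 55, 37 were single-exon, 15 filled-in and 3 mitochondrial. The 10 with the largest change in the line where they changed less were *ZNF830*, *KTI12*, *ZNHIT2*, *TIGD1*, *NCBP2AS2*, *RNF227*, *MAGEH1*, *GSPT2*, *FEM1A* and *MT-ND3*. Without Rh30 sgCTL replicate A, sgCTL replicate C or sgDNAJC17 replicate B, 34, 35 and 31 members were up in both, and with library totals alone 32.

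*ZNF830* (ENSG00000198783, chromosome 17, 34961530 to 34963775), a zinc finger gene inside a gene of the other strand, had 13.3, 14.0 and 12.4 CPM with sgCTL in ES8 and 22.2, 21.3 and 20.7 with sgDNAJC17. In Rh30 it had 13.7, 14.4 and 14.0 CPM against 19.7, 22.1 and 21.9. Each sgDNAJC17 library was above each sgCTL library in both lines, with log2 fold changes of 0.69 (SE 0.08, adjusted p = 0.000584, edgeR) and 0.60 (SE 0.08, adjusted p = 0.000123, edgeR). *KTI12* (ENSG00000198841, chromosome 1), whose product works with the Elongator complex, rose from 11.8, 12.8 and 12.3 CPM to 21.3, 20.2 and 18.9 in ES8. In Rh30 it rose from 27.1, 27.6 and 28.4 to 35.6, 43.4 and 40.2. It lies inside a gene of the same strand and shares exonic bases with it, so the count is uncertain.

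*ZNHIT2*, which takes part in assembly of the U5 snRNP of the spliceosome, had log2 fold changes of 0.76 in ES8 and 0.50 in Rh30, and *GSPT2*, a retrogene encoding the translation termination factor eRF3b, 0.52 and 0.43. *GSPT2* had 19.6, 18.2 and 19.2 CPM with sgCTL and 26, 28.2 and 27.9 with sgDNAJC17 in ES8. In Rh30 it had 26.5, 27.4 and 26.7 against 36.4, 36.9 and 35, again with no overlap between groups. *FEM1A*, which encodes a substrate receptor of a cullin ubiquitin ligase, had the largest change of the 10 in ES8 (log2 0.94, adjusted p = 0.000399, edgeR), but its exon lies over that of another gene and its count is uncertain. *NCBP2AS2*, which lies head to head with the cap-binding gene *NCBP2*, changed by 0.58 and 0.46, *TIGD1*, from a domesticated transposon, by 0.71 and 0.49, the MAGE family gene *MAGEH1* by 0.45 and 0.63, and the RING finger gene *RNF227*, a filled-in member, by 0.80 and 0.45.

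**Figure D3:**
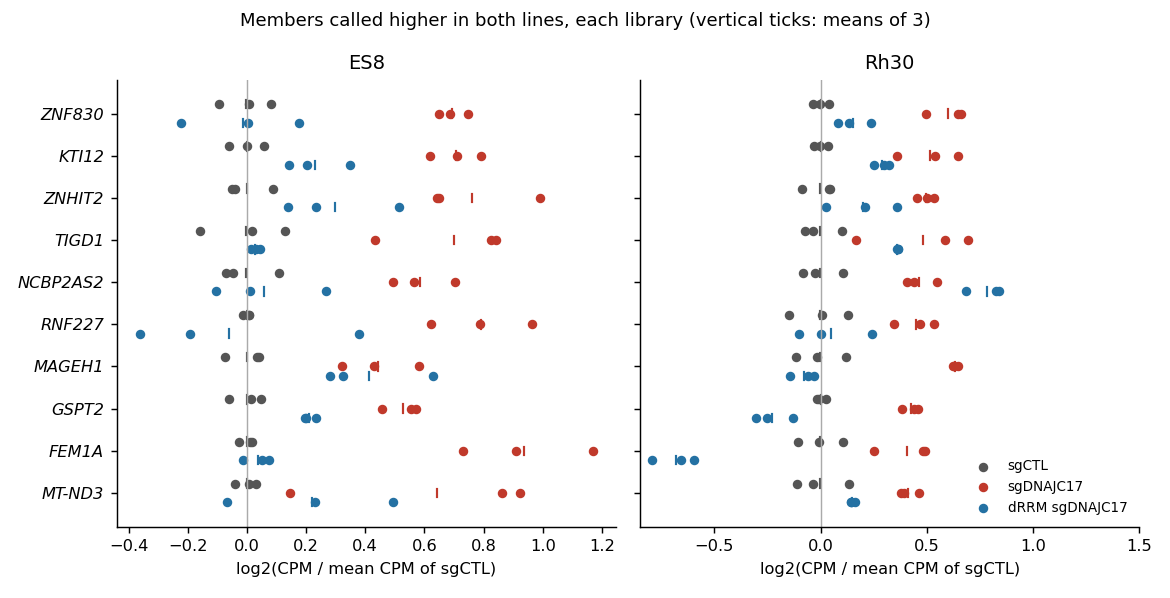
Log2 ratio of CPM to the mean of the line's sgCTL libraries (x axis) for the 10 members with the largest change among those called up in both lines, 1 point per library and a tick at the mean of 3. In ES8 and Rh30 the sgDNAJC17 points (red) lie right of the sgCTL points (grey). In ES8 the dRRM points (blue) lie near sgCTL for *ZNF830*, *TIGD1*, *NCBP2AS2*, *RNF227* and *FEM1A*. For *KTI12*, *ZNHIT2*, *GSPT2* and *MT-ND3* they centre between the groups, at log2 fold changes against sgCTL of 0.21 to 0.31, not called. For *MAGEH1* they lie with sgDNAJC17. In Rh30 the dRRM points run from below sgCTL for *FEM1A* to above sgDNAJC17 for *NCBP2AS2*.

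A list of 26 spliced genes of messenger RNA export and 3' end processing, set beside the members, held 12 called up and 4 down in ES8, with a median of 0.07. In Rh30 it held 9 up and 3 down, with a median of 0.11. Of all genes 13.6% were up and 13.8% down in ES8, and 16.1% and 16.2% in Rh30. In that list *DDX39B*, an export helicase, changed by 0.54 in ES8 (adjusted p = 0.000522, edgeR). *CPSF1*, a subunit of the cleavage and polyadenylation factor, changed by -0.63 and -0.46 in the 2 lines, the lowest value of the list in each. These 2 genes are not members and were named outside the naming rule.

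Retrogenes, copies of spliced parents, rose in ES8. Of 16 members on that list 13 were up and 0 down in ES8, with a median log2 fold change of 0.54, and of 14 tested in Rh30 4 were up and 0 down, with a median of 0.18. The parent gene, which encodes a like protein through a spliced RNA, allows a direct look at 6 pairs. *CSTF2T*, a cleavage stimulation factor subunit, had 49.7, 49.2 and 50.8 CPM with sgCTL and 72.7, 72.4 and 72.4 with sgDNAJC17 in ES8, and its fold change was 0.53 (adjusted p = 0.000365, edgeR), where that of its parent *CSTF2* was 0.05 (adjusted p = 0.63, edgeR). In Rh30 these were 0.23 and -0.02. *KLHL9*, a Kelch adaptor of a cullin ligase, changed by 0.65 in ES8 and 0.39 in Rh30, and *KLHL13* by 0.05 and 0.01. *CHMP1B*, of the ESCRT machinery, changed by 0.64 and 0.27, and *CHMP1A* by 0.31 and 0.01. The Rh30 call on *CHMP1B* was lost with the GC and length correction (0.12) and without sgCTL replicate A. That on *CSTF2T* in Rh30 was lost without sgDNAJC17 replicate B.

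The other pairs did not part in that way. *RRAGA*, a small GTPase of nutrient sensing, changed by 0.44 in ES8 and *RRAGB* by 0.37, and in Rh30 by 0.15 (not called) and 0.32. *EIF5AL1* changed by 0.69 and its parent *EIF5A* by 0.26 in ES8, but reads of this near-identical copy can be assigned to either. The call on *EIF5AL1* was lost with library totals alone, without sgCTL replicate B or C and without sgDNAJC17 replicate B. *MCTS2* was not called in either line (-0.24 and -0.28), while *MCTS1* was called up in Rh30 (0.34). The difference within pairs was not tested.

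All 13 mitochondrial genes had positive fold changes in ES8, and 11 were called up, with a median of 0.60 and a range of 0.44 to 0.72. The 2 not called differed within the knockdown group: *MT-ATP8* had 195, 137 and 177 CPM with sgCTL and 69.2, 362 and 320.4 with sgDNAJC17, and *MT-ND6* 169, 157 and 164 against 162, 267 and 239, with replicate A the lowest. Without that replicate 13 were up, with a median of 0.64. *MT-CO2* (ENSG00000198712), a cytochrome c oxidase subunit, had 1297, 1318 and 1268 CPM with sgCTL and 2202, 2181 and 2025 with sgDNAJC17, which gave 0.72 on the log2 scale (adjusted p = 8.35e-05, edgeR). *MT-CO1* and *MT-CO3* changed by 0.44 and 0.54. In Rh30 4 were up and 0 down, with a median of 0.06: *MT-CO2* had 564, 661 and 639 CPM with sgCTL and 724, 646 and 663 with sgDNAJC17, and these overlap. With the GC and length correction 0 were up and 5 down in Rh30, with a median of -0.10, and the changes of *MT-CO3* and *MT-ND3* went from 0.21 to 0.02 and from 0.41 to 0.13. The count up in Rh30 was 2 with library totals alone and without sgCTL replicate A or C or sgDNAJC17 replicate B, and without sgDNAJC17 replicate A 3 were down. Mitochondrial members took 1.11% ± 0.0191 (SD, n = 3) of counts in ES8 sgCTL and 1.59% ± 0.127 (SD, n = 3) in ES8 sgDNAJC17 libraries. Mitochondrial messages carry short poly(A) tails, so their yield can follow the selection step, and more mitochondrial RNA per cell and less RNA of other kinds cannot be told apart in such bulk samples.

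Protocadherins of the beta cluster, neuronal cell adhesion genes whose coding sequence lies in 1 large exon, rose together in ES8. Of 13 members, all of the beta cluster, 11 were up and 0 down, with a median of 0.49. Not all of these 13 were single-exon members: the shared upstream string was found in 10 of them but in only 8 of the single-exon members. *PCDHB5* had 117, 112 and 122 CPM with sgCTL and 171, 162 and 161 with sgDNAJC17 (log2 0.49), and *PCDHB11* changed by 0.53. *PCDHB2* rose in both lines, from 30.3, 29.3 and 30 CPM to 46.8, 47.6 and 45.0 in ES8 and from 25.4, 22.9 and 24.3 to 30.9, 32.1 and 29.9 in Rh30. The 2 not called in ES8 were *PCDHB12* (log2 -0.00) and *PCDHB13* (0.27), and both hold the shared upstream string printed above. In Rh30 *PCDHB2* and *PCDHB12* were called up of 12 tested, with a median of 0.30, but *PCDHB5* and several others were under 2 CPM there. Reads of these like genes can be shared among them.

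**Figure D4:**
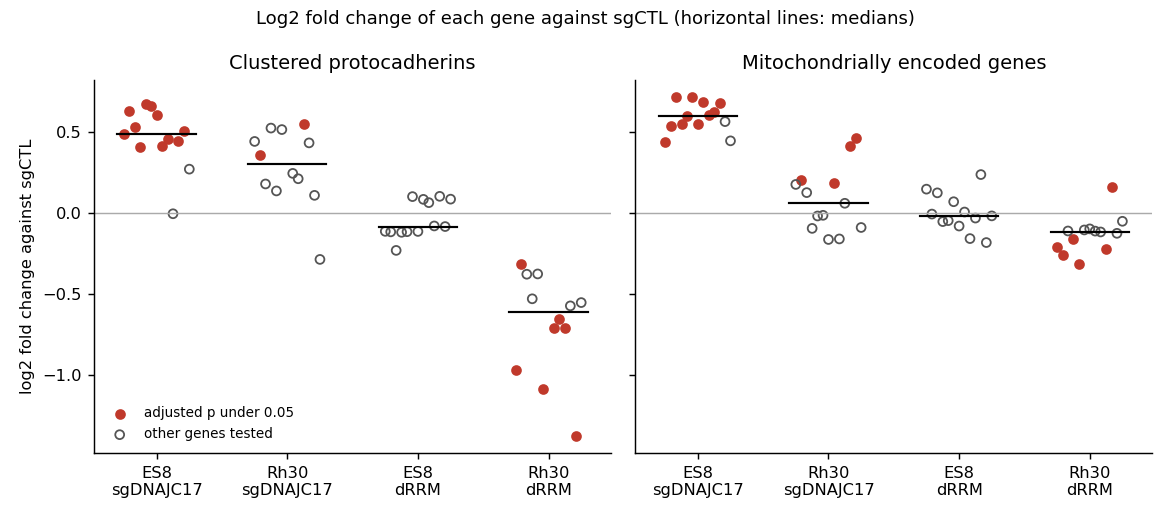
Log2 fold change against sgCTL (y axis) of each clustered protocadherin (left) and each mitochondrially encoded gene (right) in 4 comparisons that share the sgCTL libraries of their line; filled points were called and lines mark medians. In ES8 with sgDNAJC17 the medians are 0.49 and 0.60, in ES8 dRRM cells they are -0.08 and -0.02, and in Rh30 dRRM cells they are -0.61 and -0.12.

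Other families moved less. Of 11 MAGE, NECDIN and gag-derived genes 8 were up in ES8 (median 0.32), among them *RTL8C* (0.41) and *MAGEF1* (0.24), while *PNMA1* was at 0.16 and not called, and 2 of 9 were up in Rh30 (median 0.04). Against the 13.6% of all genes up in ES8 and 16.1% in Rh30, the 8 of 11 in ES8 lies above, while the shares up of developmental, immediate early and glycan genes that follow lie near or below them. Of 13 developmental factors 2 were up in ES8 (median 0.07), with *SOX11* at 0.07, *SOX12* at 0.16 and *SOX2* at -0.03, none of these called, and 1 of 9 was up and 1 down in Rh30. Of 9 immediate early and stress factors 1 was up in ES8 (median 0.12), and *JUN* (0.16) and *JUNB* (0.22) were not called. In Rh30 1 of 8 was up and 1 down. Of 11 G protein-coupled and Frizzled receptors 3 were up in ES8 (median 0.29), with *FZD1*, a Wnt receptor, at 0.35, *FZD2* at 0.22 and *FZD8* at 0.02. In Rh30 1 of 7 was up and 2 were down, *FZD8* among them (-0.33). That call was lost without sgCTL replicate A or sgDNAJC17 replicate B and with the GC and length correction, where the value was -0.14.

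The smaller lists gave 1 of 6 glycan and lipid-anchor enzymes up in ES8, *B3GALT6* (0.58), with *CHST14* (0.13) and *MGAT2* (0.24) not called, and 0 of 5 called in Rh30. Of 6 genes on the list of BTB, Kelch and ubiquitin ligase genes 3 were up and 1 down in ES8, and 2 up and 1 down in Rh30, *KBTBD6* (0.30) among those up. The 1 down in Rh30 was *LRRC10B* (-0.44), which its name places among leucine-rich repeat genes rather than in these families. Of 4 small GTPases 1, *RRAGA*, was up in ES8, where *RHOB* (-0.07) and *RAP2B* (0.06) were not called, and 1 was down in Rh30.

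Of 4 heat shock members, 3 were tested in ES8, with 2 up and 0 down and a median of 0.26, and 4 in Rh30, with 0 up and 1 down and a median of -0.15. *HSPA1A* and *HSPA1B* encode the same stress-induced HSP70, the chaperone that J-domain proteins serve, and *DNAJC30* is a mitochondrial J-domain gene. In ES8 *HSPA1A* had 33.9, 33.6 and 35.9 CPM with sgCTL and 46.4, 37.4 and 40.2 with sgDNAJC17, which gave 0.26 on the log2 scale (adjusted p = 0.0459, edgeR). *HSPA1B* had 41.2, 38.9 and 38.8 against 38.9, 33.3 and 34.9 (log2 -0.16, adjusted p = 0.149, edgeR), so that the near-identical copies differed in sign. Reads of these copies can be assigned to either, and how such reads were treated is not stated, so both counts are uncertain in both lines. The call on *HSPA1A* was lost with the replicate block (adjusted p = 0.0709, edgeR), with library totals alone, without any of the 3 sgCTL libraries and without sgDNAJC17 replicate C. In Rh30 *HSPA1A* had 14, 37 and 18 counts with sgCTL and 13, 7 and 4 with sgDNAJC17, and it was the only member called 2-fold down (log2 -1.42, adjusted p = 0.0305, edgeR). The groups lay next to each other, and the call was lost without sgCTL replicate B (-0.93), without sgDNAJC17 replicate B or C, and with DESeq2. *HSPA1B* had 123, 148 and 138 counts against 106, 105 and 94 (log2 -0.32, not called). *DNAJC30* was called up in ES8 (0.32), a call lost without any 1 of the 3 sgCTL libraries, and was at 0.13 in Rh30. *HSPB3*, a small heat shock protein gene, was tested in Rh30 alone (0.02, not called).

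Few members fell. In ES8 they were *KCTD12* (log2 -0.71), *NME3* (-0.49), *NRARP* (-0.32), *AMER2* (-0.31) and *TMEM229A* (-0.22). *KCTD12*, an auxiliary subunit of GABA-B receptors, had 6.29, 5.63 and 7.52 CPM with sgCTL and 3.21, 4.78 and 3.95 with sgDNAJC17, without overlap. In Rh30 the members down included *SOX12*, a SOX factor, from 81.6, 77.8 and 74.4 CPM to 68.8, 61.6 and 57.3 (log2 -0.31, or -0.13 and not called with the GC and length correction), *LRRC10B* from 37.0, 33.9 and 34.7 to 26.4, 25.9 and 25.5 and *GAS1*, a Hedgehog co-receptor, from 160, 151 and 149 to 133, 118 and 103 (log2 -0.37, named after its values had been seen). The other 12 lay between -0.22 and -1.42.

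The effect of sgDNAJC17 differed between the lines for 33 members by the interaction term fitted on all 12 parental libraries, 3 with a higher effect in Rh30 and 30 with a higher effect in ES8, where 5.23% and 4.55% of 18899 genes were called in those directions. Of the 30, 17 were single-exon, 4 filled-in and 9 of the 13 mitochondrial. *NOG*, which encodes the secreted BMP antagonist noggin, had the smallest p. It rose from 12.2, 11 and 11.1 CPM to 29.2, 24.7 and 26.9 in ES8 (log2 1.23, SE 0.09, adjusted p = 8.8e-05, edgeR), and in Rh30 it had 15.2, 13.3 and 15.7 against 13.6, 13.7 and 12.9 (log2 -0.14, not called). The difference was -1.34 (adjusted p = 4.42e-06, edgeR).

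*TSPYL1* and *TSPYL4*, autosomal genes of the nucleosome assembly protein family that neighbour each other on chromosome 6, came next. *TSPYL1* shares exonic bases with its host, so its count is uncertain. It had 44.5, 43.0 and 44.5 CPM with sgCTL in ES8 and 81.4, 80.1 and 81.0 with sgDNAJC17, and in Rh30 64.6, 62.1 and 60.7 against 68.6, 62.1 and 62.8. *TSPYL4* had 28.6, 27.6 and 28.2 against 47.7, 46.7 and 48.7 in ES8 and 8.13, 8.07 and 8.37 against 8.13, 7.76 and 6.87 in Rh30. Both thus rose in ES8 without overlap, and in Rh30 neither was called (log2 0.05 and -0.11). The other member up 2-fold in ES8, the filled-in ENSG00000282936, had 145, 121 and 143 counts with sgCTL and 288, 298 and 261 with sgDNAJC17 (log2 1.33) and 9 to 32 counts in the parental Rh30 libraries. *C6orf226*, *HSPA1A* and *JUND* were called in opposite directions in the 2 lines, and for *HSPA1A* the difference was not called without Rh30 sgCTL replicate B or sgDNAJC17 replicate C.

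With the dRRM cDNA, few members in ES8 were called against sgCTL. Of 265 tested, 1 was called up and 0 down, where 0.174% of all 17199 genes were called in either direction, and the median log2 fold change was 0.03. The median was 0.03 for single-exon members and 0.10 for filled-in members. By library, filled-in members lay above spliced genes by 0.108 ± 0.067 (SD, n = 3) in dRRM cells and by 0.184 ± 0.0437 (SD, n = 3) with sgDNAJC17. The 1 was *SOX1*, at 14.1, 12.1 and 12.7 CPM with sgCTL, 12.1, 12.7 and 13.5 with sgDNAJC17 and 22.6, 23.9 and 21.6 in dRRM cells. Without dRRM replicate A 13 members were called, without replicate B 3, and without sgCTL replicate B or C 0. Against sgDNAJC17, 76 members were down and 6 up of 265, with 7.36% and 7.35% of 17099 genes called in those directions, and the median was -0.22. Single-exon members were down in 31.6% and filled-in members in 9.68%, with medians of -0.24 and -0.08. Without dRRM replicate C 45 were called. The members with the largest falls were ENSG00000282936 (-1.43), *AJM1* (-0.90) and *FEM1A* (-0.90), and those with the largest rises *SOX1* (0.84), *KCTD12* (0.78) and *NME3* (0.69). Of the 55 members up in both lines after knockdown, 0 were called in ES8 dRRM cells against sgCTL, with a median of 0.09. Against sgDNAJC17, 26 of them were called down and 0 up, with a median of -0.33. Both comparisons share libraries with the knockdown comparison.

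In Rh30 the dRRM cells did not return to the sgCTL level, for members or for genes at large. Of 239 members 60 were up and 114 down against sgCTL, where 33.8% of 15442 genes were up and 35% down, and the 2 kinds of member parted. Of 165 single-exon members 28 were up and 94 (57.0%) down, with a median of -0.30, while of 61 filled-in members 31 (50.8%) were up and 15 down, with a median of 0.20. Spliced genes of 3 to 5 exons were up in 50.8% with a median of 0.22, and those of 21 or more exons down in 72.5%. For *FEM1A*, at -0.67 against sgCTL, the GC and length correction gave -0.16 and no call. It took *KTI12* from 0.30 to 0.10 and *MAGEF1* from 0.29 to 0.03, neither then called, and turned *MT-ND3* from 0.16 to -0.56. Single-exon members differ from spliced genes in GC content and length, and medians of the classes with that correction are not reported for this comparison. The median single-exon difference was -0.27, -0.34 and -0.26 in the 3 dRRM libraries, below every sgCTL library. With library totals alone in place of TMM the median of all genes here moved from -0.01 to -0.25, 23.2% of genes were up and 46.8% down, single-exon members had 14 up and 118 down, and the median of the filled-in members turned to -0.03, so directions are relative to TMM.

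Among the members with the largest falls in Rh30 dRRM cells were *HSPA1A* (1, 4 and 3 counts, log2 -2.73) and *PCDHB10* (-1.38). Reads of *HSPA1A* can be assigned to its copy *HSPA1B*, which was at -0.13 and not called. The largest rises were in the filled-in genes *UQCRQ* (1.32), *PET100* (1.27), which serves assembly of cytochrome c oxidase, and *TXNDC17* (1.24). *UQCRQ* had 166, 197 and 207 CPM with sgCTL and 481, 412 and 522 in dRRM cells. By family, 8 of 9 developmental factors tested were down and 0 up, among them *SOX11* (-0.64) and *SOX12* (-0.73). All 7 receptors were down, *FZD1* (-0.82), *FZD2* (-0.56) and *FZD8* (-0.82) included. So were 7 of 12 protocadherins and 5 of 8 immediate early factors, *JUN* (-0.33) among them. The shares of these last 2 families lie near the 57.0% of all single-exon members down in this comparison. Spliced genes were down in 42.4%, with a median of -0.07. The calls on *SOX11*, *SOX12*, *FZD1*, *FZD2* and *FZD8* were kept in each of the 14 alternatives, the GC and length correction included.

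Against Rh30 sgDNAJC17, 131 of 238 members were down and 46 up in dRRM cells, with 30.5% and 29.4% of 15309 genes called in those directions. Among the largest falls were *FOXC2* (-1.70) and *PCDHB15* (-1.61), and the 3 largest rises were *PET100* (1.18), *TXNDC17* (1.06) and *UQCRQ* (0.98). With library totals alone 153 members were down and 29 up, and the median of all genes moved from -0.01 to -0.17. Of the 55 members up in both lines after knockdown, 31 were down and 16 up in this comparison, and against sgCTL 26 were up and 19 down. The interaction of line with dRRM against sgCTL, added after the data had been seen, called 42 members higher in Rh30 and 93 lower, with 19.9% and 21.5% of 18854 genes called in those directions, and 81 of the 93 were single-exon.

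**Figure D5:**
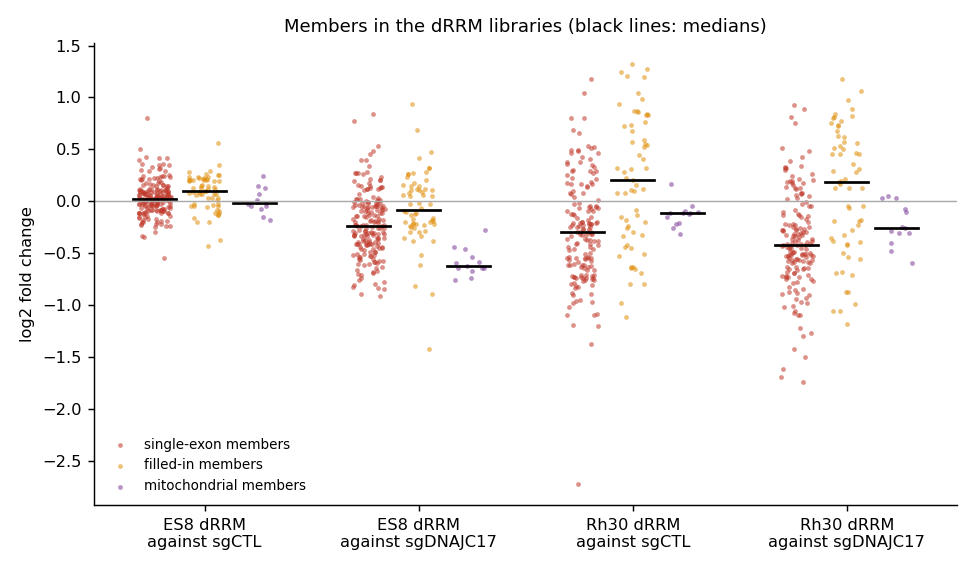
Log2 fold change (y axis) of each member in the 4 comparisons of dRRM libraries, by kind of member, with black lines at the medians; comparisons of 1 line share the dRRM libraries. In ES8 against sgCTL the medians are 0.03 for single-exon, 0.10 for filled-in and -0.02 for mitochondrial members. In Rh30 against sgCTL single-exon members lie at a median of -0.30 and filled-in members at 0.20, which turns to -0.03 with library totals alone.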

How the data were processed

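The authors deposited 1 table of raw counts per library, whole numbers of reads per gene with exon coordinates and no normalization, 18 libraries in all. Per the labels, reads were trimmed with Trimmomatic 0.36, aligned with STAR 2.5.2b to GRCh38 and counted with featureCounts (Subread 1.5.2). The methods of the study name an older build, but the positions in the tables are those of GRCh38. Strand use and the treatment of reads on 2 genes are not given in the sources used here. Counts of all genes of a comparison went into edgeR 4.0.16 under R 4.3.3 (filterByExpr, TMM, quasi-likelihood test, Benjamini-Hochberg), each comparison on its own libraries. Members and lists were chosen with earlier results of these data known. A gene was called at an adjusted p under 0.05, with 2-fold as a second rule. Gene classes, canonical transcripts and GC content were looked up by Ensembl identifier in the reference tables.

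Named members were the 10 called in both lines with the largest smaller change, those called 2-fold in 1 line with a mean of at least 50 counts there (up to 5 a direction), the 3 smallest p in the interaction, the 5 highest per kilobase, the nearest to the count minimum, the 3 highest by mean count in each family list, the 3 largest changes per dRRM comparison and direction, and members of retrogene pairs; others are marked. A few members that this rule names are not reported here. Alternatives were DESeq2 1.42.0, its size factors, other filters, thresholds and member sets, library totals for medians, a block on the replicate letter and the omission of each library in turn. A correction for GC content and length, subsets by canonical exon number, library totals for counts and the dRRM interaction were added after the data had been seen. Deviations from group means of same-letter replicates correlated at 0.48, 0.19 and 0.27 in the Rh30 knockdown and at under 0.1 for at least 1 letter in the other comparisons. Letters may thus be pairs in the Rh30 knockdown only. All main tests, that of the Rh30 knockdown included, were unpaired, and the block on the letter was an alternative. On simulated counts, 200 of 200 changed genes were recovered among 17159 for the ES8 knockdown, with 5 false calls. For Rh30 199 of 200 were recovered among 15404, with 7 false calls. The genes raised in these counts had median log2 fold changes of 0.987 (ES8) and 0.998 (Rh30). Recovery of shifts as small as the members' medians was not tested.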

Additional observations from a re-analysis of the deposited data

Results flagged for a closer look

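The effect of sgDNAJC17 differed between the lines, by the interaction term over the 12 parental libraries (edgeR, adjusted over all genes), for 15 of the members named in the text. Each was rerun under 19 or 20 alternatives. Differences are given as Rh30 minus ES8 on the log2 scale, and no cause was tested. The part in these differences of the epithelial levels that moved with sgDNAJC17 in Rh30 was not tested. Among nuclear members, the effect was lower in Rh30 for ENSG00000282936 (-1.78, adjusted p = 0.00927), *HSPA1A* (-1.65, adjusted p = 0.0135), *NOG* (-1.34, adjusted p = 4.42e-06), *TSPYL4* (-0.84, adjusted p = 0.000258), *TSPYL1* (-0.80, adjusted p = 4.96e-05), *AJM1* (-0.77, adjusted p = 0.00698), *FEM1A* (-0.50, adjusted p = 0.0362), *SOX12* (-0.46, adjusted p = 0.0284), *FZD1* (-0.44, adjusted p = 0.0298) and *CHMP1B* (-0.34, adjusted p = 0.0387). Among mitochondrial genes the difference was seen for *MT-ND4L* (-0.74, adjusted p = 0.00262), *MT-ATP6* (-0.59, adjusted p = 0.00258), *MT-CO2* (-0.57, adjusted p = 0.00159) and *MT-CO3* (-0.30, adjusted p = 0.0455). It was higher in Rh30 for *KCTD12* (0.78, adjusted p = 0.0078), which fell in ES8 and was not called in Rh30. The tests on *HSPA1A* and ENSG00000282936 rest on low counts in Rh30, and reads of *HSPA1A* can be assigned to its copy *HSPA1B*. For *HSPA1A* the call was lost without Rh30 sgCTL replicate B (-1.15) or Rh30 sgDNAJC17 replicate C (-1.36), and for ENSG00000282936 without Rh30 sgCTL replicate A (-1.41). The call was lost in 10 alternatives for *CHMP1B*, 9 for *MT-CO3*, 7 for *FEM1A*, 5 for *FZD1* and 5 for *SOX12*, all but 1 of them the omission of a library. It was lost in none of those run for *AJM1*, *KCTD12*, *MT-ATP6*, *MT-CO2*, *MT-ND4L*, *NOG*, *TSPYL1* and *TSPYL4*.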

How the results depend on the processing

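The direction of the members' median against all spliced genes held under every alternative run. Against spliced genes of 3 to 5 exons it held in ES8 but not throughout in Rh30, where the medians were 0.1278 and 0.1302, and 0.112 and 0.149 without sgDNAJC17 replicate A. The median of the members minus that of all spliced genes was 0.32 in ES8 and 0.13 in Rh30. With the GC and length correction it was 0.25 and 0.0866, with that correction and the replicate block 0.24 and 0.0787, and against spliced genes inside the quartiles of GC and length of single-exon members 0.23 and 0.11. Leaving out 1 library gave 0.27 to 0.34 and 0.12 to 0.16.

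Counts of members were compared with these: in ES8 128 rose and 5 fell, in Rh30 75 rose and 15 fell, in both lines 55 rose and 0 fell, with 1 and 174 called in dRRM against sgCTL (ES8, then Rh30), 82 and 177 in dRRM against sgDNAJC17, 33 in the interaction with sgRNA and 135 in that with dRRM. With a fold change of at least 2, these were 2, 0, 0, 1, 0, 0, 0, 17, 1, 19, 4 and 16. At an adjusted p under 0.01 they were 37 up and 6 down for Rh30, 1 down for ES8, 22 up in both, 45 for ES8 dRRM against sgDNAJC17 and 14 in the interaction. Without members sharing exonic bases they were 40 up in Rh30, 26 up in both, 71 up and 3 down in ES8, 92 for Rh30 dRRM against either group, 47 for ES8 dRRM against sgDNAJC17, and 21 and 73 in the interactions. With single-exon members alone 48 were up in Rh30 and 19 in the interaction.

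With the GC and length correction 21 members were down in ES8, 3 down in both, 4 and 134 called for ES8 dRRM against sgCTL and sgDNAJC17, and 62 in the interaction. With the correction and the replicate block the values were 21 down in ES8, 25 down in Rh30, 3 down in both and 79 in the interaction. With the replicate block alone 24 were down in Rh30, 2 called for ES8 dRRM against sgCTL and 53 for ES8 dRRM against sgDNAJC17. Blocks for comparisons other than the Rh30 knockdown rest on a shared letter only. DESeq2 called 3 for ES8 dRRM against sgCTL and 52 in the interaction. With library totals alone, also chosen after seeing the data as the GC and length correction was, 9 were down in ES8, 47 up in Rh30 and 32 up in both. Without a filter on low counts 8 were down in ES8 and 14 called for ES8 dRRM against sgCTL.

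Leaving out 1 library gave, in ES8, 85 to 146 up and 1 to 26 down. It gave, in Rh30, 41 to 83 up and 6 to 27 down. Of members in both lines 31 to 61 rose and 0 to 4 fell. The other counts were 0 to 13 and 162 to 174 for dRRM against sgCTL, 45 to 88 and 157 to 176 for dRRM against sgDNAJC17, and 19 to 47 and 124 to 145 in the interactions. The interaction with sgRNA fell to 19 without ES8 sgCTL replicate C and to 21 without Rh30 sgCTL replicate B. For genes named in the text, 199 calls were rerun in 2868 alternatives, of which 2656 kept the call, 208 lost it in the same direction and 4 turned. *MT-ND3* in Rh30 dRRM against sgCTL was -0.0719 with library totals, -0.56 with the GC and length correction and -0.56 with that and the block, and *ZNHIT2* there was -0.0198 with library totals. With counts near 50 only large changes can be called.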
